A study of Mus musculus with 8 samples.

Results

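The comparison described here set a liver sample of AIM knockout mice beside one of wild-type mice, both after 20 weeks of high-fat diet. It used 2 of the 8 arrays of the series, taken by their labels, 1 for each genotype, and every gene with signal on them. The wild-type group carried AIM+/+ and the knockout group AIM-/-, both on a C57Bl/6 background, and both received the high-fat diet. Total RNA was isolated with Trizol, and 500 ng was labelled with Cy3 and hybridised to a one-colour Agilent whole mouse genome array. The labels name each sample a biological replicate numbered 1. The age and sex of the animals, whether a sample came from 1 animal or a pool, and how the allele was made are not given in the sources used here. With 1 array per genotype no test was possible, so every difference below is a description of these 2 samples, with no replicate check.

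AIM, the apoptosis inhibitor of macrophage, is encoded by Cd5l and is secreted by tissue macrophages, in the liver chiefly by Kupffer cells, the resident macrophages of the sinusoids. It circulates bound to pentameric IgM and is taken up into fat cells and hepatocytes, where it has been reported to restrain lipid storage. Immediate early genes, which come up repeatedly below, are switched on within minutes of a growth factor, cytokine or stress signal from factors already present in the cell, and their RNAs are short-lived. Sterol synthesis genes, also described below, are switched on together by the factor SREBP2 when a cell's sterol content is low.

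On the wild-type array 20361 of 41172 probes and on the knockout array 21119 of 41173 were marked well above background by the scanner software. A probe marked so on at least 1 array was kept, and each gene was read from its probe of highest mean signal, which gave 15273 genes, 13882 of them well above background on both arrays. Signals are in arbitrary units after background subtraction, and a pair of signals is written as wild type against knockout. Differences are knockout minus wild type on the log2 scale, after each array's 75th percentile (signal 319 in the wild type and 332 in the knockout) was subtracted. The software's own error was close to 10% of a signal (median 10.2% and 10.1%), repeated spots of 1 probe had a median coefficient of variation of 4.30% and 3.52%, and different probes of 1 gene differed with a root mean square SD of 0.25 over 4367 genes. The 7 spike-in probes stood between 0.07 and 0.18, with a median of 0.13. These errors are technical and say nothing of the spread between animals. All wild-type arrays of the series lie on 1 slide and all knockout arrays on another, so genotype and slide cannot be told apart.

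The targeted gene separated the samples. The Cd5l probe, on chromosome 3 at 87456828 to 87456887 (mm8), gave a signal of 23802 in the wild type and 149.5 in the knockout, a difference of -7.37 or 166-fold lower. The knockout signal was still marked well above background, and the position of the probe relative to the deletion is not known from the sources used here. Both samples carried Xist, which coats the inactive X of female cells, at 4434 in the wild type and 4312 in the knockout. Its other 3 probes stood between -0.69 and -0.08. The Y-linked genes Ddx3y, Eif2s3y, Kdm5d, Uty and Usp9y were not well above background on either array. Hepatocyte core genes, such as Alb (serum albumin, 386920.0 in the wild type and 374559 in the knockout, difference -0.11), had a median difference of -0.03 over 14 measured members, with none at least 2-fold apart.

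Around Cd5l, 75 other genes had a probe within 2 Mb, with a median difference of 0.13 against 0.02 for the 655 on the rest of chromosome 3. Of these 75 neighbours 2 were at least 2-fold higher and 2 at least 2-fold lower. On the rest of the chromosome it was 18 and 18 of 655. Among all genes compared, 2.06% were at least 2-fold higher and 2.34% at least 2-fold lower. Fcrl1, an Fc receptor-like gene of B cells, was at least 5.32-fold lower, with a signal of 131 in the wild type and 5.14, not well above background, in the knockout. Kirrel, an adhesion protein of the immunoglobulin family, was 2.12-fold lower (94.8 against 46.7), but its other probe, not well above background in the wild type, gave a bound of 0.42. On the higher side the transcript TC1689344 was 2.22-fold higher (93.2 against 216).

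Over all genes, 314 (2.06%) were at least 2-fold higher and 358 (2.34%) at least 2-fold lower in the knockout, 672 (4.4%) in all. Where a probe was not well above background on 1 array, that side was raised to the lowest signal so marked (26.1 and 25.6), and the fold is printed as "at least". Spike-in scaling, which takes the spike-in median as 0, gave 258 higher and 465 lower and moved the median of all genes from 0.03 to -0.09. Among genes well above background on both arrays 114 (0.821%) were higher and 187 (1.35%) lower, together 2.17%, and the SD of the difference was 0.36. Among bright genes the larger differences were mostly downward. Of 7071 genes with a mean signal of at least 500, 10 were at least 2-fold higher and 43 at least 2-fold lower.

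**Figure D1:**
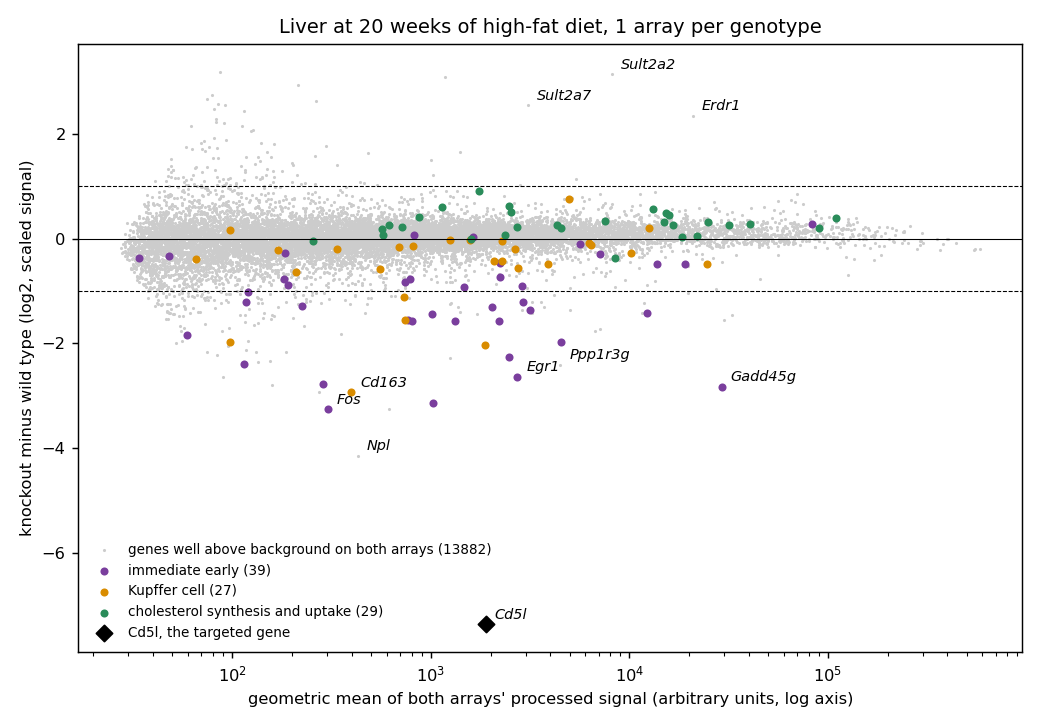
Difference between the knockout and the wild-type liver (log2, y axis) against the geometric mean of both signals (log x axis) for the 13882 genes well above background on both arrays, 1 array per genotype. Immediate early genes (purple, 39) lie mostly below 0 with a median of -1.21, Kupffer cell markers (orange, 27) have a median of -0.27, cholesterol genes (green, 29) one of 0.26, and Cd5l stands at -7.37; dashed lines mark 2-fold.

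Immediate early genes had the lowest median of the 49 lists compared at the scaling used here. Of 42 entries 39 were measured, all of them on both arrays, and 36 were lower in the knockout by any amount, against 43.8% of all genes. At least 2-fold lower were 21 of the 39, against 2.34% of all genes, and 0 were at least 2-fold higher. Their median difference was -1.21, against 0.03 over all genes. Fosl1, Egr3 and Nr4a3 were not well above background on either array.

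All 6 measured AP-1 subunits were lower in the knockout. AP-1 is the dimer of Fos and Jun family proteins that binds promoters and enhancers of stress and growth genes. Fos gave a signal of 915 in the wild type and 99.8 in the knockout, 9.55-fold lower (difference -3.26), the largest of the list. Fosb had 109.8 against 32.1 (-1.83). Jun had 1647 against 629.7 (-1.45), and Junb 19667 against 7676 (-1.42, and -1.09 with another probe). Jund, which is expressed more steadily in most cells, had 22185 against 16565, a difference of -0.48. The dim Fosl2 (52.9 against 43.9) stood at -0.33, and a second probe, not well above background in the knockout, gave a bound of -1.57.

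Other early transcription factors mostly showed the same direction. Atf3, a stress-induced factor of the ATF family, had a signal of 2999 in the wild type and 352 in the knockout, 8.87-fold lower. The zinc finger factor Egr1 had 6662 against 1114 (-2.64) and its relative Egr2 258 against 51.1 (-2.40). Myc, a driver of growth and ribosome production, had 736 against 112 (-2.77), with -2.72 for a second probe and a bound of -1.43 for another that was not well above background in the knockout. Among the orphan nuclear receptors Nr4a1 had 8768 against 2317 (-1.98) and Nr4a2 169 against 86.2 (-1.03). In the Krüppel-like family Klf4 had 1285 against 453 (-1.56), Klf6 2838 against 1767 (-0.74) and Klf10 2575 against 1928 (-0.48). Klf2 was one of the 3 members that stood higher, at 73695 against 93188 (0.28), but its second probe gave -1.08. Also higher were Per1, a clock gene also induced by stimuli, at 0.03, and Ier5 at 0.07. Both differences were smaller than the median SD of 0.11 between probes of 1 gene.

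Members that act as brakes on signalling or on the cell cycle were lower as well. Gadd45g, a sensor of growth arrest and stress and the brightest gene of the list in the wild type, had 76238 in the wild type and 11169.8 in the knockout, 7.11-fold lower. Its relatives Gadd45b (253 against 143, -0.89) and Gadd45a (1006 against 609.5, -0.78) differed by less than 2-fold. Btg2, an antiproliferative gene, had 5306 against 1147 (-2.27, and -2.55 and -2.33 with its other 2 probes). Socs3, the feedback inhibitor of JAK-STAT cytokine signalling, had 3748 against 1304 (-1.58). The MAP kinase phosphatases Dusp1 (4349 against 1956, -1.21) and Dusp2 (344 against 147, -1.29) were lower, and Dusp6 stood at -0.49. Zfp36, which marks cytokine RNAs for decay, had 4936 against 2000.1 (-1.36, and -1.68 with a second probe).

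The secreted matrix proteins Ccn1 (1355 against 476, -1.57) and Ccn2 (2237 against 780.3, -1.58), both targets of the YAP coactivator and of serum response factor, were lower together. Ier2 had 3131 against 1310.2 (-1.32, and -0.69 with a second probe) and Ier3 175 against 78.9 (-1.21). Csrnp1, Sgk1, Maff and Rhob lay between -0.92 and -0.77. Arc, Btg1, Sik1 and Zfp36l1 differed by between -0.38 and -0.10. The list of serum response factor and actin genes, which shares the promoter element of many early genes, had a median of -0.07 over 15 members, with 0 at least 2-fold apart in either direction.

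**Figure D2:**
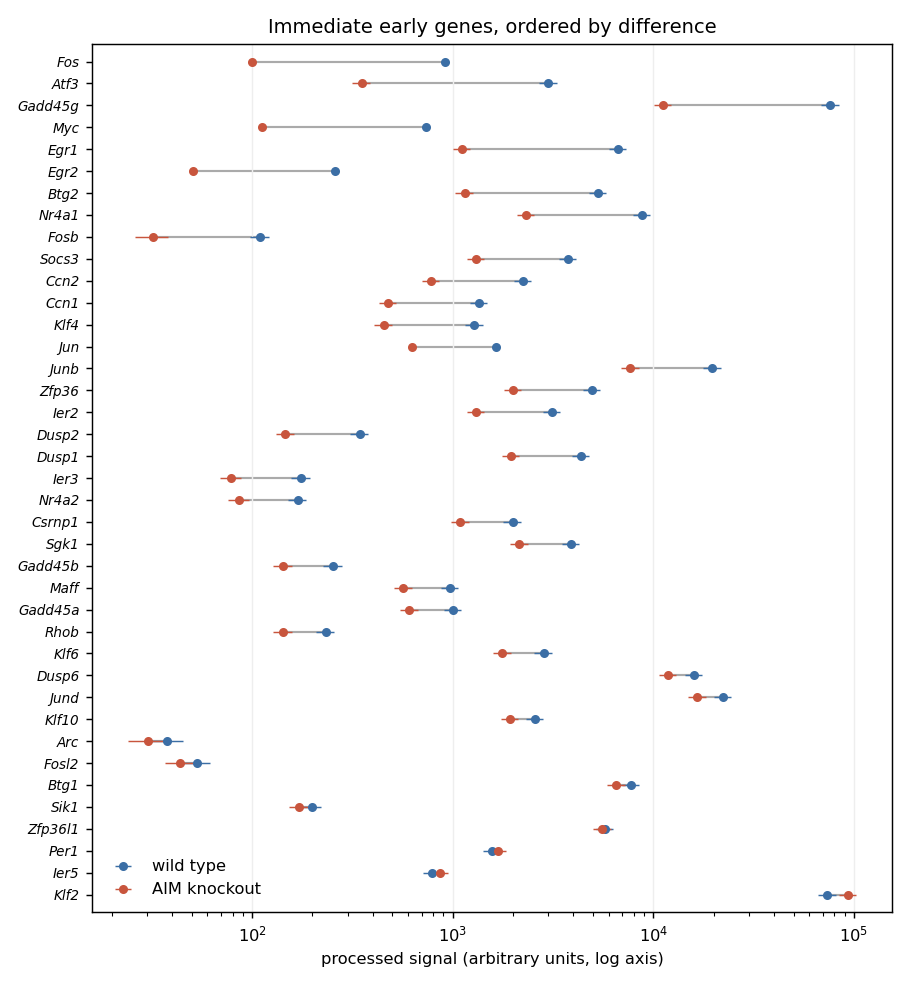
Processed signal (log x axis) of the 39 measured immediate early genes in the wild-type (blue) and the AIM knockout liver (red), 1 array each, ordered by difference; bars are the scanner software's error. The knockout point lies left of the wild-type point for 36 genes, from Fos at 915 and 99.8 to Zfp36l1, and right of it for Per1, Ier5 and Klf2.

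The promoters of 5 of these genes are shown because cyclic AMP and serum response elements are the textbook routes of early induction. Each run holds the 250 bases before the RefSeq transcription start, 5′ to 3′ on the gene's strand (build GRCm38.p6), with capitals on the cyclic AMP response element TGACGTCA or its core TGACG on either strand, and on the CArG box, which binds serum response factor.
Fos (chr12:85473640-85473889, plus strand): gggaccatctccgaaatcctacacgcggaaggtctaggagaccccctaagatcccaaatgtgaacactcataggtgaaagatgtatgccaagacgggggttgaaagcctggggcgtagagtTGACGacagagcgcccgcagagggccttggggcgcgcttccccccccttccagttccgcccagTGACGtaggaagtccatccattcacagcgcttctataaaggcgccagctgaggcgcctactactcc
Atf3 (chr1:191183334-191183583, minus strand): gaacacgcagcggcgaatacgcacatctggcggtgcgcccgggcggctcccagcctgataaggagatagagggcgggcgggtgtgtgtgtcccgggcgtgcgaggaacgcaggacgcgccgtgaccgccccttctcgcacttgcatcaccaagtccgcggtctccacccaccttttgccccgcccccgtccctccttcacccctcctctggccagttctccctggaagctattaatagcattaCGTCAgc
Btg2 (chr1:134079156-134079405, minus strand): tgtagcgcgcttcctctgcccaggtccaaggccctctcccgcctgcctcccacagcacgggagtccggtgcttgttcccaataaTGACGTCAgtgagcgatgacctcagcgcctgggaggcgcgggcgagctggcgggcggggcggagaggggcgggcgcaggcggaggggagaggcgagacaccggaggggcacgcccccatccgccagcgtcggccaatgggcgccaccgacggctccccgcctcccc
Dusp1 (chr17:26508473-26508722, minus strand): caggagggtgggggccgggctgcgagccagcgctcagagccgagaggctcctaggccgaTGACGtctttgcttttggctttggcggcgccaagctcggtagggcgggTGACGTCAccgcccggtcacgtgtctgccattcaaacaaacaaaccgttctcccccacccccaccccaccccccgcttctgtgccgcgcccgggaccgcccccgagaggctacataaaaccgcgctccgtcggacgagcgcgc
Zfp36 (chr7:28379229-28379478, minus strand): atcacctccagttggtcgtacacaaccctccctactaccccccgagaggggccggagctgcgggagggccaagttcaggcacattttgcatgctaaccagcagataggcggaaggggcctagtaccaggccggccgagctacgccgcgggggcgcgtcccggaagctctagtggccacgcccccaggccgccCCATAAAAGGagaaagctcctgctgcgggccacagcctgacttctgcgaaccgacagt
The core TGACG, which the full element contains on both strands, was in 25 of the 48 windows of the list (52.1%, 18 of 33 genes with a window), against 33.3% of the windows of the cholesterol list described below and 17.8% of all 32851 windows. The full element was in the windows of 3 genes, Btg2, Dusp1 and Maff (6.25% of windows against 1.55%). A CArG box was in 5 of the 48 windows (10.4%, against 1.47% of all windows). These belong to only 2 of the 33 genes, Egr2, which has 5 windows in the list, and Zfp36, which has 1. The AP-1 site TGANTCA was in 4.17% of the list's windows and 6.75% of all. These windows were not matched for base composition, some belong to alternative starts of 1 gene, and a match is a description of letters only.

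Lists of genes that respond to hormones, fasting or stress had medians between -0.19 and 0.16, with single members far below them. Igfbp1, a secreted insulin-like growth factor binding protein that insulin represses, had a signal of 53269 in the wild type and 20188 in the knockout, 2.75-fold lower. Ppp1r3g, a glycogen-targeting subunit of protein phosphatase 1, had 10121 against 1988, 5.30-fold lower, and was the lowest of 24 glucose metabolism genes, whose median was -0.04 with 2 at least 2-fold lower. Of 15 glucocorticoid-responsive genes 4 were at least 2-fold lower (Mt2, Igfbp1, Mt1 and Dusp1, the last also one of the immediate early genes), against 2.34% of all genes, and the median was -0.07. The metallothioneins, which bind zinc and copper, had 50473 against 17789 for Mt2 (-1.56) and 27605 against 13984 for Mt1 (-1.04, other probe -2.43). Tat and Angptl4, also glucocorticoid targets, stood at 0.30 and -0.00.

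The stress hormone Gdf15 had a signal of 12129 in the wild type and 3704 in the knockout (-1.77) and was the lowest of 24 p53 and apoptosis genes (median -0.19, 2 at least 2-fold lower). Hspa1a, the inducible HSP70 chaperone, had 542 against 251 (-1.17), with its other 2 probes between -1.18 and -0.65. The rest of the heat shock list did not share this. Of its 14 members 10 were higher, against 55.8% of all genes, with Hspa8 at 0.26. The list's median was 0.16, and 0.03 under spike-in scaling. Pdk4, the kinase that turns off pyruvate dehydrogenase in fasting, had 942 against 458 (-1.10). Among 39 PPAR alpha and fatty acid oxidation genes it was the only one at least 2-fold apart, and the median was 0.04.

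Kupffer cell markers were lower for the most part, and unequally so. All 27 were well above background on both arrays, so the cells' defining markers were present in both samples. By any amount 24 were lower, against 43.8% of all genes, and 3 higher, and the median was -0.27. The count of higher members was 3 to 5 under the other scalings and background correction. At least 2-fold lower were 5 of 27, against 2.34% of all genes, and 0 were higher. Summed over the list, the signal was 98695 in the wild type and 85529 in the knockout, or -0.27 after scaling. In bulk tissue, fewer cells of a type and less RNA per cell cannot be told apart.

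The 5 markers at least 2-fold lower are receptors of the macrophage surface. Cd163, the scavenger receptor for haptoglobin and haemoglobin, had a signal of 1074 in the wild type and 146 in the knockout, 7.67-fold lower. Marco, a class A scavenger receptor, had 3701 against 944 (-2.03). Timd4, the phosphatidylserine receptor of long-lived resident macrophages, had 189 against 49.7 (-1.98). Vsig4, the complement receptor of Kupffer cells, had 1249 against 444 (-1.55), and Cd14, the lipopolysaccharide coreceptor, 1053 against 509 (-1.11). As these 5 were picked for being at least 2-fold lower, their place below the summed list was fixed by that choice.

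Other markers of the same cells differed by less than 2-fold. Clec4f, a lectin largely restricted to Kupffer cells, had 10946 against 9467 (-0.27), and the folate receptor Folr2 had 1241 against 1264 (-0.03). The complement subunits C1qa, C1qb and C1qc stood at -0.49, -0.20 and -0.13. The macrophage growth factor receptor Csf1r (-0.43, its other 2 probes at -0.63 and 0.08), the macrophage surface protein Adgre1 (-0.43) and lysozyme Lyz2 (-0.48) lay in between, as did Tyrobp, Cd68 and Clec4n (-0.56, -0.58 and -0.64). Slc40a1, the iron exporter, had -0.08, and Mrc1, Mertk, Spic and Msr1 lay between -0.22 and -0.15. The factors Id3 (3739 against 6556, 0.75) and Nr1h3 (11472 against 13674, 0.19), both also expressed in hepatocytes, and Siglec1 (0.16, its other probe at a bound of -0.30) were the 3 that stood higher.

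Markers of recruited and lipid-associated macrophages were lower in 12 of 12 measured members, against 43.8% of all genes, with a median of -0.54 and 1 at least 2-fold lower. That gene was Chil3, a chitinase-like protein of activated macrophages, with 279 against 125 (-1.21). The secreted phosphoprotein Spp1 had 13293 against 9389 (-0.56) and the tetraspanin Cd9 2851 against 1817 (-0.71), while the lysosomal protease Ctsd, common to most cells, had -0.10. The list's summed signal was 55543 in the wild type and 47687 in the knockout, and Itgam, Cx3cr1, Mmp12 and Fabp5 were not well above background.

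Neutrophil markers had a median of -1.00, and 9 of 9 measured members were lower, against 43.8% of all genes, 4 of them at least 2-fold, against 2.34%. S100a9 and S100a8, calcium-binding proteins that pair as calprotectin and are encoded, like Cd5l, on chromosome 3, had 4554 against 1835 (-1.37) and 335 against 122 (-1.52). The granule protein Ltf had 89.6 against 43.6 (-1.10), and Retnlg, a resistin-like protein of neutrophils, was at least 3.17-fold lower (77.9 against 20.1, not well above background). Most of these markers were dim, and dim genes as a whole leaned downward. With a mean signal under 100 on both arrays, 39.8% of genes were higher, against 55.8% of all genes. Of these dim genes 5.32% were at least 2-fold apart. The neutrophil median moved to -0.45 with another background correction (normexp), which left 2 at least 2-fold lower, as did a minimum mean signal of 200. The defining markers Elane, Cxcr2, Mmp8 and Mmp9 were not well above background on either array. Il1b, the cytokine interleukin 1 beta that activated myeloid cells make, had 648 against 190.5 (-1.82) and was the only one of 22 cytokine and chemokine genes at least 2-fold apart (list median -0.37, 14 lower).

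**Figure D3:**
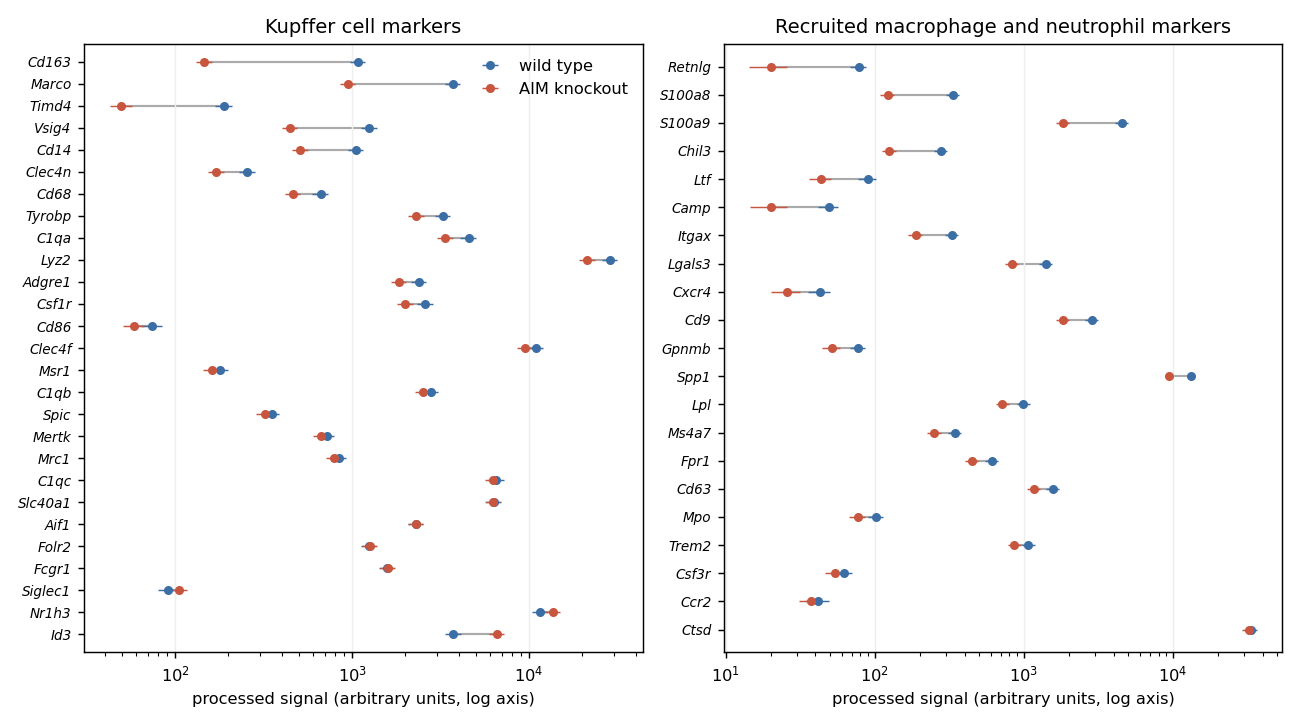
Processed signal (log x axis) of 27 Kupffer cell markers (left) and of 21 recruited macrophage and neutrophil markers (right) in the wild-type (blue) and the knockout liver (red), 1 array each; bars are the scanner software's error. Cd163, Marco, Timd4, Vsig4 and Cd14 are at least 2-fold apart, while the points of Folr2, Aif1 and Slc40a1 overlap; on the right every knockout point lies left of the wild-type point.

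Markers of other liver cells had medians between -0.50 and -0.03. Endothelial markers had a median of -0.03 over 19 members, with 1 at least 2-fold lower (Lyve1, the hyaluronan receptor of sinusoidal endothelium, 599 against 291, -1.10, other probe -1.57) and 1 higher (Tek, at least 2.68-fold, its other probe 0.07). T and NK cell markers had a median of -0.08 over 16 members, Ccl5 at 0.23, and B cell markers one of -0.35 over 7. Stellate cell and fibrosis genes were lower in 26 of 31 members, against 43.8% of all genes, with a median of -0.24, 2 at least 2-fold lower and 1 at least 2-fold higher. Among the lower members was the collagen chain Col1a2 (3408 against 2256, -0.65). Loxl1, which cross-links elastin, was 2.23-fold lower, while Lox, its relative, was at least 5.97-fold higher (10.6, not well above background, against 162).

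Cholangiocyte and progenitor markers were lower in 9 of 10 members, again against 43.8% of all genes (median -0.50), with Krt19 at -0.74 (313 against 195), Krt7 at -0.58 and Cd24a 2.10-fold lower (323 against 160.1). Liver tumour and fetal liver genes, which share some of these markers, were lower in 16 of 20, against 43.8% of all genes. Their median was -0.48, with 2 at least 2-fold lower and 1 at least 2-fold higher. As the lists overlap, their counts are not independent. H19, an imprinted RNA of fetal liver, had 188 against 71.3 (-1.46, other probe -1.29), and the keratin Krt20 stood the other way at 34.9 against 81.0 (1.16).

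Genes of cholesterol synthesis and uptake stood slightly higher in the knockout. Of 29 measured members 26 were higher, against 55.8% of all genes, 0 were at least 2-fold apart, and the median was 0.26. Under the other scalings and background correction the count was 22 to 28 and the median 0.13 to 0.31. Beside this, bright genes as a whole also leaned upward (median 0.09 for the 3591 with a mean signal of at least 2000, of which 71.4% were higher), the spike-in probes had a median of 0.13, and the 34 respiratory chain genes were higher in 34 of 34 with a median of 0.21. The part of this in the cholesterol result was not tested beyond the scalings given.

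Enzymes are given in the order of the pathway. Hmgcs1, which makes HMG-CoA, had 28391 against 35217 (0.25, other probes from -0.09 to a bound of 0.57). In the mevalonate branch Mvk stood at 0.07, Pmvk at 0.46 and Mvd, the decarboxylase that yields isopentenyl pyrophosphate, at 0.92 (1246 against 2446), the largest difference of the list. Idi1 (0.33) and Fdps (10624 against 16335, 0.56) followed. Fdft1 and Sqle, which make and oxidise squalene, stood at 0.25 and 0.22, and Lss and Cyp51, which form and demethylate lanosterol, at 0.41 and 0.26. Of the later enzymes Msmo1 had 0.49, Ebp 0.38, Sc5d 0.28 and Dhcr7 0.32.

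Regulators of the pathway differed among themselves. Insig1, a brake on SREBP processing, had 905 against 1434 (0.60). Its relative Insig2, which insulin represses in liver, was the lowest member at 9411 against 7588 (-0.37, other probe -0.69). Srebf2, the gene of SREBP2 itself, stood at 0.20 and its escort Scap at 0.03. Stard4, a sterol carrier, gave -0.01 with its brightest probe and 0.66 and 0.74 with its other 2.

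The promoters of 3 of these genes are shown, since binding of SREBP2 next to NF-Y is the textbook arrangement of this pathway. Again each run holds 250 bases before the start on the gene's strand (GRCm38.p6), with capitals on the CCAAT box that NF-Y binds and on the sterol regulatory element TCACNCCAC, on either strand.
Mvd (chr8:122443423-122443672, minus strand): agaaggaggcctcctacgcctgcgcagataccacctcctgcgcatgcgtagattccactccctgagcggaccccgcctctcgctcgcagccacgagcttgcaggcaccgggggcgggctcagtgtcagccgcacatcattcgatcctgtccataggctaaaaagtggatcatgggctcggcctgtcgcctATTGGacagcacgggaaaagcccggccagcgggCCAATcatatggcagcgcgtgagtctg
Hmgcs1 (chr13:119690101-119690350, plus strand): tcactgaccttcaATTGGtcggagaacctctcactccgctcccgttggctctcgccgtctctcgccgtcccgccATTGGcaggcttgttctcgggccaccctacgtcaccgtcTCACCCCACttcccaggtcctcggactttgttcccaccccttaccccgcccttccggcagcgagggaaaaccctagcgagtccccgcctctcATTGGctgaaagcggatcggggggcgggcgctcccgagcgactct
Insig1 (chr5:28071162-28071411, plus strand): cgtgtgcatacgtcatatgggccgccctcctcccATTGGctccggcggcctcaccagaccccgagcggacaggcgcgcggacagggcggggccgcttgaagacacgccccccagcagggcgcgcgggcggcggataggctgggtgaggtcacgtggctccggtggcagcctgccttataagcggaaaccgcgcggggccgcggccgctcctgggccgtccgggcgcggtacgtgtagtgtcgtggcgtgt
CCAAT was in 19 of the 27 windows of this list (70.4%, 19 of 21 genes with a window), against 43.8% of the windows of immediate early genes and 33.8% of all windows. The element TCACNCCAC was in the window of 1 gene, Hmgcs1 (3.70% of windows against 1.05% of all).

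Fatty acid and triglyceride synthesis genes were higher in 21 of 29 members, against 55.8% of all genes and 71.4% of those with a mean signal of at least 2000. Their median was 0.25, and 0.12 under spike-in scaling. Fasn, the fatty acid synthase, had 108872 against 147155 (0.38, other probe 0.51) and Thrsp, a lipogenic nuclear protein, 58437 against 96764 (0.67). Pnpla3, a lipid droplet lipase induced by feeding, was the only member at least 2-fold apart, with 84.8 against 309.5 (1.81). The desaturase Scd1 and the acyltransferase Dgat2 stood at -0.01 and -0.04. The 26 lipid droplet and fat storage genes had a median of 0.05, with Plin2, the coat protein of liver fat droplets, at -0.11 (114649 against 110393). Cidea, which enlarges lipid droplets, was the only one at least 2-fold apart, 4.84-fold lower (2701 in the wild type and 582 in the knockout).

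**Figure D4:**
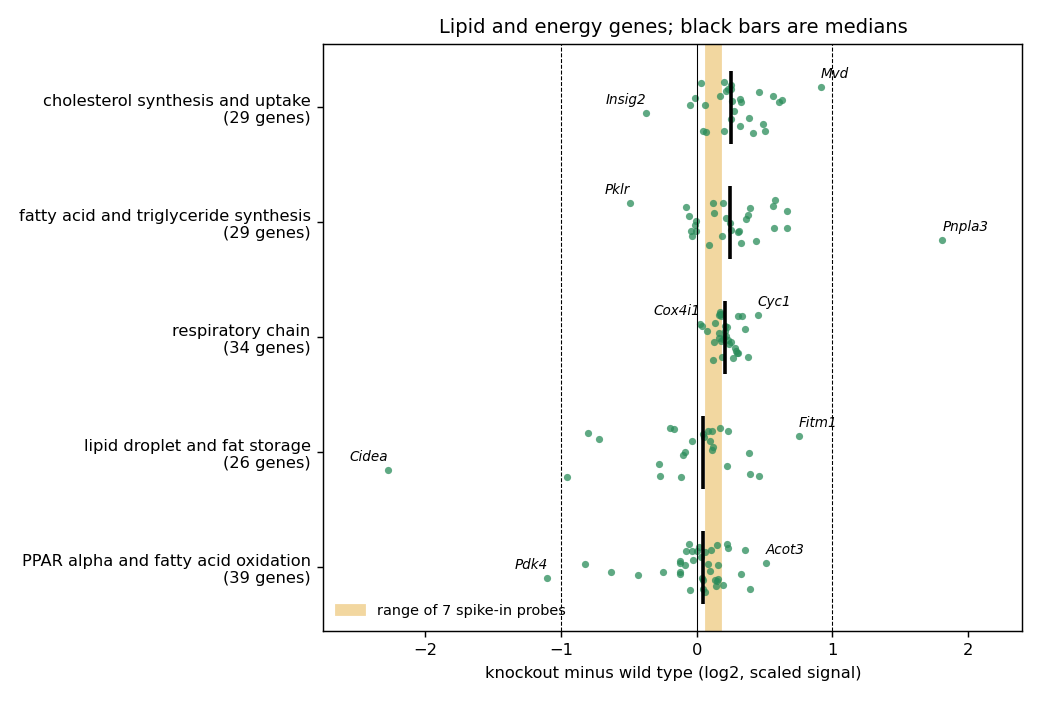
Difference between the knockout and the wild-type liver (log2, x axis) for the genes of 5 lipid and energy lists, 1 point per gene, 1 array per genotype; black bars are medians (0.26, 0.25, 0.21, 0.05 and 0.04 from top to bottom) and the shaded band is the range of the 7 spike-in probes, 0.07 to 0.18. Most cholesterol, fatty acid synthesis and respiratory chain genes lie right of 0 and inside 2-fold (dashed lines), and Cidea, Pdk4 and Pnpla3 lie outside it.

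The largest bright differences upward were in sulfotransferases. Sult2a2, one of a cluster of near-identical hydroxysteroid sulfotransferase genes on chromosome 7, had a signal of 2702 in the wild type and 24722 in the knockout, 8.78-fold higher, and was at least +4.37 on the log2 scale with a second probe. Sult2a7 had 1249.7 against 7583, 5.83-fold higher, and the transcript ENSMUST00000098809 of the same family 395 against 3495, 8.49-fold higher. As these copies are alike in sequence, their probes may share signal and the single genes are uncertain. Sult2a8, also of this family, differed by less than 2-fold, at 9731 against 18787 (0.89). Hao2, an oxidase that is higher in female than in male mouse liver, had 663 against 1602 (1.21). The female-biased list as a whole had a median of 0.10 over 19 members. At least 2-fold higher were 2 of them, against 2.06% of all genes, and 0 were at least 2-fold lower. Among the other members Cyp2b9 stood at 0.05 and Cyp2a4 at -0.39.

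Gsta2, a glutathione transferase, had 777 against 2558 (1.66) and was the only one of 35 xenobiotic metabolism genes at least 2-fold apart. Erdr1 had 9071 against 48043 (2.35, other probe 1.98). Tfrc, the transferrin receptor, was 2.32-fold higher (136 against 329) and Slc51b, a bile acid exporter subunit, 2.13-fold (135 against 299). On chromosome 3, the chromosome of Cd5l, the ion channel gene Asic5 had 76.2 against 605 (2.93) and Wars2, the mitochondrial tryptophanyl-tRNA synthetase, 34.2 against 210.1 (2.56, another probe at a bound of 1.12).

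Others of the 15 largest differences upward rested on dim probes. Olfr297, Slc14a1, LOC671969, Cd37, Lcn9, Zfp870, Inpp1 and AK089858 had wild-type signals between 28.2 and 48.3 and knockout signals between 184 and 271. A second probe of Zfp870 gave -0.05. The 8 largest bounds upward, from ENSMUST00000060421 (at least 10.9-fold) to ENSMUST00000062945 (at least 8.29-fold), had knockout signals between 226 (Myo3a) and 297; besides these 3 they were Suco, Rnf150, Sema3a, 1700112M01Rik and AK042887. The other probe of Suco, well above background on both arrays, gave -0.69.

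Among the largest differences downward that no list held, Npl, the lyase that breaks down sialic acid, came next after Cd5l with 1765 in the wild type and 104 in the knockout, 17.7-fold lower. Rgs1, a brake on chemokine receptor signalling in leukocytes, had 737 against 101 (-2.93). The linker histone gene H1f3 had 1862 against 202 (-3.26), the homeobox gene Meis1 220.4 against 36.6 (-2.65), Lrmda 408 against 60.9 (-2.80) and 3110035C09Rik 300.2 against 60.8 (-2.36). Among the 8 largest bounds downward were Zic4, Mfsd9, B930096M23Rik, AK031518, Limch1, Frrs1l and BB050456, at least 7.45-fold to at least 10.7-fold lower. Their wild-type signals lay between 183 and 264, their knockout signals were not well above background, and second probes gave 0.42 for AK031518 and -0.25 for Zic4.

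Many lists lay near the median of all genes. Bile acid and transport genes had a median of 0.01 over 22 members, coagulation genes one of -0.01 over 23, complement components -0.02 over 25 and circadian clock genes 0.03 over 21, and interferon response genes were split, 15 higher and 15 lower. None of the 30 interferon, 25 complement component or 21 clock genes was at least 2-fold apart. The clock regulator Dbp had 61830.0 against 61273 (-0.07), and Noct, a rhythmic gene also tied to feeding, 3759 against 6568 (0.75). Endoplasmic reticulum stress genes had a median of 0.10 over 28 members, pericentral hepatocyte genes 0.18 over 17 and periportal genes 0.06 over 17. Cell cycle genes were higher in 21 of 26 members, against 55.8% of all genes. Their median of 0.14 became 0.01 under spike-in scaling, and 0 were at least 2-fold apart.

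**Figure D5:**
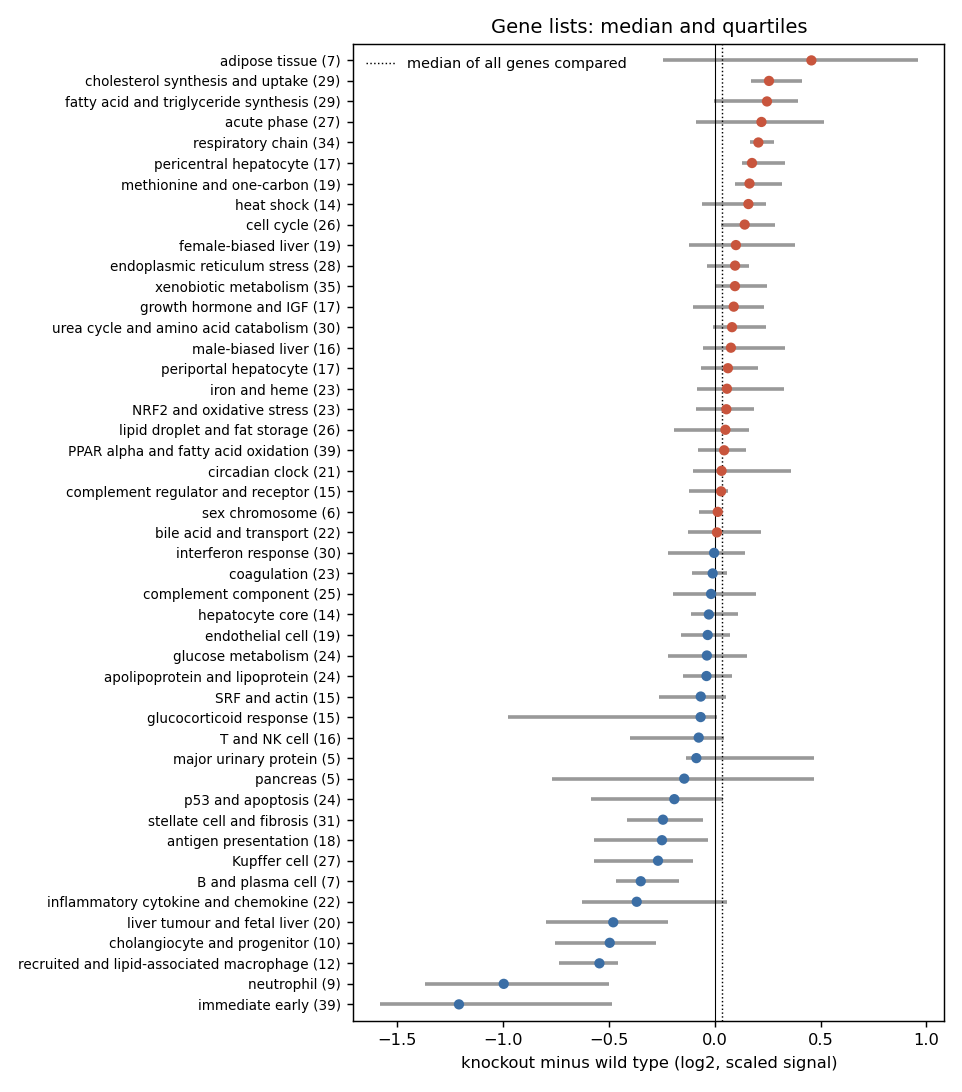
Median difference between the knockout and the wild-type liver (log2, x axis, points) and its quartiles over members (grey bars) for the 47 gene lists with at least 5 measured members, numbers of members in brackets, 1 array per genotype. Immediate early genes (-1.21), neutrophil markers (-1.00) and recruited macrophage markers (-0.54) lie at the bottom; the adipose tissue list (0.46, 7 mostly dim members) and cholesterol genes (0.26) lie at the top; the dotted line is the median of all genes, 0.03.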

How the data were processed

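Liver RNA was measured on one-colour arrays (design 014868). Each deposited scanner file holds 1 array's processed signal intensity, for which the submitters' processing notes name Agilent Feature Extraction 9.5 (9.5.3.1 per the file headers), with background subtracted by the software. The authors' deposited value table holds log2 values, which lay within 0.01 of the scaled values used here for 99.9% of probes well above background. Its 6 columns of other samples were not used. Control spots (1639 per array) and outlier spots (75 and 115) were dropped, repeated spots were averaged per probe, and the log2 signal was centred on each array's 75th percentile. No spot was saturated (0 on each array).

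Probes were named through a RefSeq table (24490 by accession, 6234 by symbol, 2391 by synonym), and 8059 kept the file's name. Probe positions are on mm8. A gene counted as different at 2-fold or more (1 on the log2 scale). The members and the 49 lists (1094 entries) were chosen with earlier results of these data known. Named were Cd5l, the sex chromosome genes, the 15 largest differences and the 8 largest bounds each way, past-2-fold neighbours of Cd5l, and of each list up to 6 members past 2-fold and 4 of the brightest. Every immediate early, Kupffer cell and cholesterol gene could be named. Some genes that these rules name are not reported here. Alternatives used limma 3.58.1 (R 4.3.3) for normexp with offset 50, and statsmodels 0.14.6 for lowess. The calculation was tested on simulated data.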

Additional observations from a re-analysis of the deposited data

How the results depend on the processing

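The direction of the list medians for immediate early genes, Kupffer cell markers, neutrophil markers and cholesterol genes was the same under every alternative tried. Normexp background correction gave 95 genes at least 2-fold higher and 157 lower, and 245 of its 252 calls were also calls of the report. Genes well above background on both arrays gave 114 and 187. Leaving the dim side as measured, with no floor, gave 551 higher and 530 lower. Spike-in scaling and a mean signal of at least 200, both chosen after seeing the data, gave 258 higher and 465 lower (35.7% of calls higher in place of 46.7%), and 24 and 74 (24.5%). The immediate early median of -1.21 became -0.95 with normexp and -1.03 with the mean over a gene's probes. The neutrophil median of -1.00 became -0.45 with normexp, -0.78 on both arrays and -1.37 at a mean signal of at least 200. Turned around were the adipose tissue median (-0.27 at that signal, where fewer members remained), AK031518 (0.42) and Suco (-0.69), both where another probe, well above background on both arrays, stood in. The causes of the other shifts were not tested. Of 109 named genes 68 moved by more than the spread between probes of a gene with normexp, 21 with no floor, 14 with the mean over probes and 0 or 1 under each other scaling. No paired analysis was possible because each genotype has 1 sample.

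The number of arrays, 1 per genotype, limits the precision. Under a mean signal of 100, 5.32% of genes well above background on both arrays were at least 2-fold apart, against 0.808% at 2000 or more, and their difference had an SD of 0.49 against 0.25.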

Other observations

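The families below were chosen after their values were seen, and over all genes 43.8% were lower and 2.34% at least 2-fold lower. Linker histone H1 genes were lower in 7 of 8 measured members, 4 of them at least 2-fold. H1f3 had 1862 against 202 (-3.26), H1f1 240.4 against 57.5 (-2.12), H1f5 403 against 131 (-1.68) and H1f4 2227 against 881 (-1.40), whereas H1f2 stood at -0.07. H1f10 gave 0.07 with its bright probe and a bound of -1.48 with a dim one that was not well above background in the knockout. Core histone genes of the replication-dependent clusters had a median of -0.08 over 23 members, 16 of them lower and 7 higher. At least 2-fold lower were 4, among them H4c1 (5939 against 2947, -1.07) and H4f16 (-1.24). The 1 at least 2-fold higher, against 2.06% of all genes, was H2bc18 (at least 2.89-fold).

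All 9 measured genes of MHC class II presentation, which antigen-presenting cells use to show peptides to helper T cells, were lower by less than 2-fold (median -0.61), with Cd74, the invariant chain, at 8159 against 5715 (-0.57) and H2-Ab1 at 9337 against 6159 (-0.66). MHC class I genes differed less, with H2-K1 at -0.02. Of 27 acute phase genes 16 were higher and 11 lower (median 0.22), against 55.8% of all genes higher, and 0 were at least 2-fold apart. Within that list serum amyloid A genes were higher in 4 of 4 (median 0.72), with Saa1 at 43097 against 73345 (0.71) and Saa3 at 4700.1 against 8273 (0.76). Orosomucoid genes were higher in 3 of 3 (median 0.50).

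Of 11 regulators of G protein signalling 10 were lower, and Rgs1, Rgs2 (2107 against 882, -1.31) and Rgs16 (17713 against 7854, -1.23) at least 2-fold. Phlda1, another gene induced by stimuli and not among the 42 immediate early entries, had 12702 against 3992 (-1.73), Ddit4 5351 against 2414 (-1.21) and Cd83 724 against 344 (-1.13). Csad, which makes hypotaurine on the way to taurine, had 18499.8 against 7224 (-1.42, other probe -1.37). The iron hormone genes Hamp and Hamp2 stood at 0.52 and 0.70, Id1, a target of the same BMP pathway, at 0.82 (other probe 0.93), and Alas1, the first enzyme of heme synthesis, at 50745 against 95540.2 (0.85, other probe 1.08).

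A second probe, where one was well above background on at least 1 array, lay on the same side for 10 of 14 genes at least 2-fold apart under a mean signal of 100. The count was 10 of 14 between 100 and 200, 7 of 12 between 200 and 500, 1 of 2 between 500 and 2000, and 10 of 10 above that. It was past 2-fold for 2, 6, 3, 0 and 7 of them.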
